A study of Mus musculus with 8 samples.

Results

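The mRNAs of glycogen metabolism were examined in electroporated mouse muscle as a set of 9 genes, found by name among the 41709 genes of the deposited table. They were *Gyg*, *Ugp2*, *Gys1*, *Gbe1*, *Pygm*, *Phka1*, *Phkg1*, *Ppp1r3a* and *Ppp1r3c*. All 9 were present and all 9 were among the 11530 genes tested, that is, those that reached 1 TPM in 4 or more of the 8 muscles. TPM is an abundance corrected for transcript length and scaled to a fixed total in each muscle. The samples were 8 tibialis anterior (TA) muscles, a fast muscle of the lower leg, from male C57BL/6J mice aged 3 months. In each of 4 mice, 1 leg was electroporated with control non-targeting siRNAs (siNT) and the other leg with siRNAs against *Uba1* (siUBA1), the major E1 enzyme that activates ubiquitin. Both pools held 4 siRNAs, both legs received hyaluronidase before the electroporation, and the muscles were collected 7 days later. All siNT muscles carry the letter R and all siUBA1 muscles the letter L, so the leg and the siRNA cannot be told apart. The treatment tags name UBA2, UBA3 and UBA4 for siUBA1 replicates 2, 3 and 4, whereas the titles name UBA1 for all 4. Replicates 1 to 4 of both groups are the legs of mice 1 to 4.

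Glycogen is the branched glucose store of muscle fibers, built on a protein core and broken down to fuel contraction. Glycogenin, encoded by *Gyg* (named *Gyg1* in GENCODE), attaches the first glucose units to itself and so primes each particle. UDP-glucose pyrophosphorylase (*Ugp2*) supplies the activated glucose, glycogen synthase (*Gys1*) lengthens the chains, and the branching enzyme (*Gbe1*) joins them at branch points. Glycogen phosphorylase (*Pygm*) releases glucose from the chain ends once phosphorylase kinase has activated it, and *Phka1* and *Phkg1* encode the muscle regulatory and catalytic subunits of that kinase. *Ppp1r3a* and *Ppp1r3c* encode subunits that bring protein phosphatase 1 to glycogen, where it dephosphorylates synthase and phosphorylase. Fast skeletal muscle is known for its reliance on these enzymes, and inherited defects of several of them cause glycogen storage diseases of muscle.

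In GENCODE M39 on GRCm39, *Gyg* lies at chr3:20158406-20209481 (minus strand) and *Gys1* at chr7:45084175-45106058 (plus strand). *Ugp2* lies at chr11:21270384-21321276 (minus strand) and *Gbe1* at chr16:70110715-70366609 (plus strand). *Pygm* (chr19:6430569-6448538, plus strand) and *Ppp1r3c* (chr19:36708523-36714070, minus strand) are on the same chromosome. *Phka1* is X-linked at chrX:101554986-101688874 (minus strand), *Phkg1* lies at chr5:129891125-129927390 (minus strand) and *Ppp1r3a* at chr6:14680679-14755331 (minus strand). The library kit does not mark the strand, and part of the annotated exon sequence of 4 genes is shared with a gene on the opposite strand. This share was 29.8% for *Phkg1* (with *Sumf2*), 25.0% for *Ugp2* (with *Vps54* and *Gm12043*), 13.0% for *Gys1* (with *Ruvbl2* and *Gm72669*) and 5.25% for *Gyg* (with *Hltf*), so reads from these stretches cannot be assigned to either gene.

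All 9 genes matched the RefSeq promoter table by symbol, with 10 start sites in all because *Ugp2* has 2. The 250 bases before the start site are shown for the gene that primes the particle (*Gyg*), for the 2 genes whose siUBA1 muscles all lay above the siNT muscles (*Gys1* and *Ugp2*) and for the gene that differed most between mice relative to the difference between legs (*Ppp1r3c*). The last 2 of these choices rest on TPM as deposited. The coordinates are from an exact match to GRCm39. The start sites are those of RefSeq, and the GENCODE genes begin elsewhere, so that 201 of the 250 bases for *Gyg*, 88 for *Gys1*, 9 and 250 for the 2 sites of *Ugp2* and 66 for *Ppp1r3c* lie inside the GENCODE gene. Capitals mark the GC box (GGGCGG), the E-boxes CACGTG and CAGCTG, the CCAAT box (CCAAT) and the TATA box (TATAAA), searched on both strands, so that CCGCCC and ATTGG are matches on the opposite strand. No 2 of these matches overlapped in any of the 10 windows.
Gyg (chr3:20209281-20209530, minus strand): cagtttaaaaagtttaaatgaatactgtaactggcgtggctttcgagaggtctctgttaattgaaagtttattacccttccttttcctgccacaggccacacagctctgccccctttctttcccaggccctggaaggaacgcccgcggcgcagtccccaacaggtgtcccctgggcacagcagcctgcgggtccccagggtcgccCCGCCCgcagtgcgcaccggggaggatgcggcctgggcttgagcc
Gys1 (chr7:45084013-45084262, plus strand): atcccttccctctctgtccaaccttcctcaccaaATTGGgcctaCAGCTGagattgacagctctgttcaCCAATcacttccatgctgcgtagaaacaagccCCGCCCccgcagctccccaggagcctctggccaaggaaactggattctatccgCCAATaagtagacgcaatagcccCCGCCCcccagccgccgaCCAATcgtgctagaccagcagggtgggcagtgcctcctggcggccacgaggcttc
Ugp2, start site 1 (chr11:21321268-21321517, minus strand): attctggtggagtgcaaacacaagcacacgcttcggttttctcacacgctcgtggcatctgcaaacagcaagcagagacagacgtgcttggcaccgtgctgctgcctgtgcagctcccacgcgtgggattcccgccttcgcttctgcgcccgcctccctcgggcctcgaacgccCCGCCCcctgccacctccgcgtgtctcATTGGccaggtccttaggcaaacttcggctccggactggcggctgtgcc
Ugp2, start site 2 (chr11:21320630-21320879, minus strand): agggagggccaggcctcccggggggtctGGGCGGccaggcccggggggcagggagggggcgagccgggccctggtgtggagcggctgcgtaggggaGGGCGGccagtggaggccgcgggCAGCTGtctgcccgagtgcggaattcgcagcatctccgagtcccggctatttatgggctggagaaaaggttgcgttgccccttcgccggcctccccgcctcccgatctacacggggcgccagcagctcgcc
Ppp1r3c (chr19:36714005-36714254, minus strand): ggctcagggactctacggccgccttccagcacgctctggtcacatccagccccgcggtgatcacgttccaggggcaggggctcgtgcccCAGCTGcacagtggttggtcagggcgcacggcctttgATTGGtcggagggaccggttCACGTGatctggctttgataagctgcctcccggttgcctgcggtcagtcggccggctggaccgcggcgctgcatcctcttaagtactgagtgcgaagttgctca

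The *Gys1* window held 4 CCAAT boxes, 2 GC boxes and 1 CAGCTG. *Ugp2* held 1 GC box and 1 CCAAT box before start site 1, and 2 GC boxes and 1 CAGCTG before start site 2. *Gyg* held a single GC box between bases -45 and -40 from the RefSeq start. *Ppp1r3c* was the only member with CACGTG, at bases -104 to -99, and it also held 1 CAGCTG and 1 CCAAT box. Of the genes not printed, *Phka1* held 3 GC boxes and 1 CAGCTG, *Pygm* 2 CAGCTG, *Phkg1* 2 CCAAT boxes and *Ppp1r3a* 2 TATA boxes and 1 CAGCTG, and *Gbe1* held none of the 5 motifs. Among all 32851 RefSeq windows of the same length, 32.7% held the GC box, 6.02% CACGTG, 13.0% CAGCTG, 33.8% the CCAAT box and 12.4% TATAAA. These matches describe the letters of the windows and were not tested against the mRNA levels.

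*Uba1*, the targeted gene, was at 60.6, 59.0, 63.6 and 59.1 TPM in siNT replicates 1 to 4 and at 18.1, 6.77, 15.8 and 23.1 TPM in siUBA1 replicates 1 to 4. The groups did not overlap, and siUBA1 replicate 2 was the lowest muscle. The log2 fold change (log2FC) on the log2(TPM + 1) scale was -1.98 (SE 0.290, adjusted p = 0.0527 from limma without pairing, adjusted p = 0.0278 with the mouse as a block). The exact permutation test, two-sided, gave p = 0.0286, the smallest that 4 muscles against 4 allow. In limma without pairing, 3 of the 11530 genes, or 0.0260%, passed the threshold of 0.05 on the adjusted p. None of these 3 was a member of the glycogen set. Mitochondrial transcripts took 42.1% to 45.7% of the TPM in siNT muscles and 39.9% to 50.3% in siUBA1 muscles. Most genes sat slightly higher in siUBA1 muscles, with a median log2FC of 0.11 over all genes tested, which median-ratio scaling set to 0.0016. Less this median, the log2FC was 0.16 for *Ugp2*, 0.085 for *Gys1* and 0.029 for *Ppp1r3a*, and below 0 for the other 6 genes: -0.021 for *Gyg*, -0.027 for *Gbe1*, -0.057 for *Phka1*, -0.10 for *Ppp1r3c*, -0.10 for *Phkg1* and -0.15 for *Pygm*. Values relative to the median gene of the same mouse are given below for some of them.

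The 9 genes spanned a wide range of levels, which TPM allows to be compared because it is a value per length. *Pygm* was the most abundant by far at 4790 TPM over the 8 muscles (SD 336, range 4186 to 5114), which ranked 27 among the genes tested. Its TPM were 2.33 to 3.04 times the sum of the other 8 members in the same muscle. *Ugp2* followed at 396 TPM (SD 46.1), above the next gene in 8 of 8 muscles. *Phka1* (304 TPM, SD 24.8), *Ppp1r3c* (285 TPM, SD 36.2), *Gyg* (247 TPM, SD 17.8) and *Gys1* (239 TPM, SD 19.2) came next, and neighbors within this group were not separated. *Phka1* was above *Ppp1r3c* in 6 of 8 muscles, *Ppp1r3c* above *Gyg* in 6 of 8, and *Gyg* above *Gys1* in 5 of 8. *Phkg1* (169 TPM, SD 10.8), *Ppp1r3a* (67.3 TPM, SD 14.5) and *Gbe1* (24.5 TPM, SD 2.22) were each below the preceding gene in all 8 muscles. The mRNA of the branching enzyme was thus the least abundant of the set, with 79.5% of the genes tested below it.

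Against their isoform partners, the muscle forms took nearly all of the mRNA. *Pygm* made up 99.9% of the TPM of the 3 phosphorylase genes in each muscle, with the brain form *Pygb* at 2.85 to 4.10 TPM and the liver form *Pygl* at 0.560 to 1.14 TPM. *Gys1* made up 99.9% or more of the synthase mRNA, and the liver synthase *Gys2* was at 0.153 TPM or less. *Phka1* took 98.9% to 99.2% of the mRNA of the alpha subunits of phosphorylase kinase, with *Phka2* at 2.52 to 3.58 TPM. *Phkg1* took 97.0% to 97.8% of that of the gamma subunits, with *Phkg2* at 3.79 to 5.49 TPM. The beta subunit gene *Phkb*, which has no second gene, was at 87.7 to 125 TPM. Among the 7 phosphatase targeting genes *Ppp1r3a* to *Ppp1r3g*, *Ppp1r3c* took 70.7% to 84.8% and *Ppp1r3a* 14.4% to 28.5%. *Ppp1r3e* was at 1.13 to 1.51 TPM, *Ppp1r3b*, *Ppp1r3d* and *Ppp1r3f* were at 1.04 TPM or less, and *Ppp1r3g* was listed at 0 in all 8 muscles. The liver markers *Alb*, *Apoa1* and *G6pc* summed to 0.137 TPM or less in every muscle, and the skeletal muscle markers *Acta1*, *Ckm*, *Mylpf*, *Tnnt3* and *Myh4* to 75714 to 111849 TPM.

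**Figure D1:**
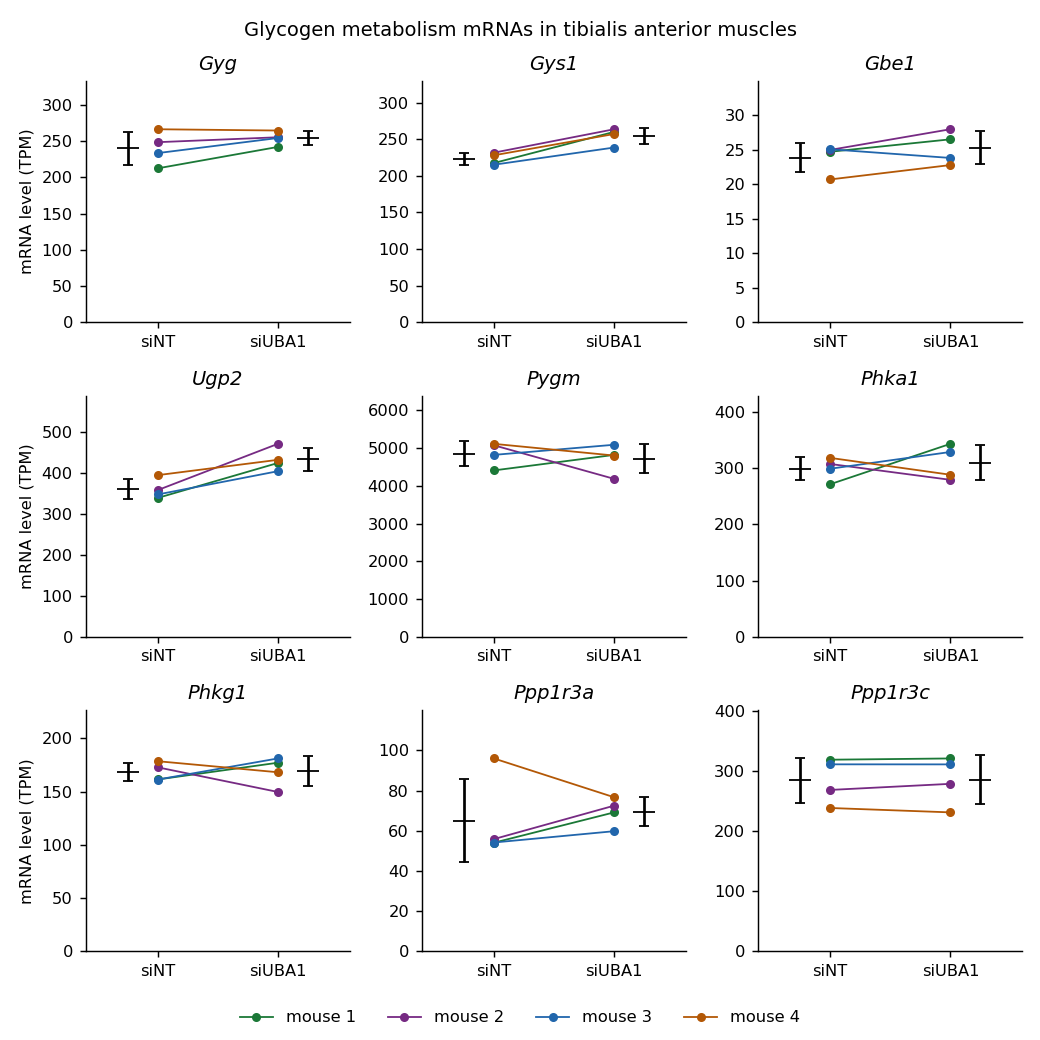
mRNA level (TPM, each axis from 0) of the 9 genes in the siNT and the siUBA1 leg, with a line joining the legs of each of the 4 mice and the mean ± SD of each group beside the points. All 4 lines slope upward for *Gys1* and *Ugp2*, the lines of *Ppp1r3c* are nearly flat and lie apart, and siNT replicate 4 stands alone at 96.0 TPM for *Ppp1r3a*.

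None of the 9 genes passed the adjusted p of 0.05 from limma, in a comparison in which 0.0260% of all genes tested did. The exact rank test across genes could not give a call, since its smallest adjusted p was 0.245 for any gene. At an unadjusted p under 0.05, 2 genes passed in both tests, *Ugp2* and *Gys1*, both higher in siUBA1 muscles, whereas 16.0% of all genes tested were higher at that threshold in limma. The log2FC of the 9 genes ran from -0.040 (*Pygm*) to 0.27 (*Ugp2*), with a median of 0.079 against 0.11 over all genes tested. It was above 0 for 8 of the 9, as for 81.8% of all genes, and after median-ratio scaling for 3 of the 9, as for 50.7% of all genes. The values are given below by the role of each gene. In these bulk samples, fewer fibers of a type and less RNA per fiber cannot be told apart.

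*Gyg*, the primer of glycogen synthesis, was at 213, 249, 234 and 267 TPM in siNT replicates 1 to 4 and at 242, 256, 255 and 265 TPM in siUBA1 replicates 1 to 4. All siUBA1 values lay within the siNT range, and the lowest and the highest muscle were both siNT muscles. The siNT muscles varied with a coefficient of variation of 9.54% and the siUBA1 muscles with 3.66%, a difference in spread that was not tested. The mean was 240 ± 22.9 TPM with siNT and 254 ± 9.31 TPM with siUBA1 (SD, n = 4 each). The log2FC of 0.085 (SE 0.0775, adjusted p = 0.554 from limma) had a 95% interval of -0.090 to 0.26, which as a fold runs from 0.940 to 1.20. It was 0.028 without siNT replicate 1, 0.14 without siNT replicate 4 and -0.037 after median-ratio scaling. Its log2FC was exceeded by that of 57.9% of the genes tested. Relative to the median gene of the same mouse, *Gyg* was at -6.7e-05, 0.0093, -0.029 and -0.054 on the log2 scale in mice 1 to 4, close to it in each.

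The other 3 genes of synthesis were *Ugp2*, *Gys1* and *Gbe1*. *Ugp2*, which makes UDP-glucose, was at 339, 358, 347 and 394 TPM with siNT and at 424, 471, 404 and 432 TPM with siUBA1. Every siUBA1 muscle lay above every siNT muscle, and in the same mice the siUBA1 leg was higher by 25.2%, 31.6%, 16.4% and 9.49%. Such a separation in this direction was found for 10.6% of the genes tested in TPM as deposited. The mean was 360 ± 24.5 TPM with siNT and 433 ± 28.0 TPM with siUBA1 (SD, n = 4 each), a log2FC of 0.27 (SE 0.0734, unadjusted p = 0.00523, adjusted p = 0.164 from limma). The exact permutation test, two-sided and without pairing, gave p = 0.0286, its smallest value, which any gene with separated groups gets. Of the genes tested, 9.51% had a larger log2FC. *Ugp2* was above the median gene in 4 of 4 mice, by 0.14, 0.37, 0.066 and 0.086 on the log2 scale.

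*Gys1*, which encodes the muscle glycogen synthase, was at 218, 232, 215 and 228 TPM with siNT and at 260, 264, 239 and 257 TPM with siUBA1. These groups did not overlap either, with 231.8 TPM as the highest siNT and 238.8 TPM as the lowest siUBA1 value. The siUBA1 leg was higher by 19.6%, 13.8%, 10.9% and 12.8% in mice 1 to 4, a narrower span than for *Ugp2*. The mean was 223 ± 8.01 TPM with siNT and 255 ± 11.1 TPM with siUBA1 (SD, n = 4 each), a log2FC of 0.19 (SE 0.0595, unadjusted p = 0.0103, adjusted p = 0.182 from limma). The exact permutation test, two-sided and without pairing, again gave its smallest value, p = 0.0286, which restates the separation. Of the genes tested, 22.9% had a larger log2FC. *Gys1* was above the median gene in 3 of 4 mice and at -0.0032 relative to it in mouse 3. With the mouse as a block, adjusted p was 0.111 for *Ugp2* and 0.139 for *Gys1* from limma, and 0.494% of all genes tested passed in that fit.

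The separation of both genes depended on the scale. After median-ratio scaling, the siNT muscles spanned 351 to 416 and the siUBA1 muscles 362 to 485 scaled TPM for *Ugp2*, and 217 to 245 against 214 to 272 for *Gys1*, so both genes overlapped. In that scaling 2.71% of the genes tested were separated in this direction, and the log2FC was 0.15 for *Ugp2* (adjusted p = 0.659 from limma) and 0.070 for *Gys1* (adjusted p = 0.825 from limma). In TPM rescaled without mitochondrial genes both genes overlapped too, whereas 13.5% of the genes tested were separated, but the log2FC was 0.29 for *Ugp2* and 0.21 for *Gys1*, no smaller than in deposited TPM. Both genes were highest in siUBA1 replicate 2, the muscle with the least *Uba1* mRNA, the largest mitochondrial share (50.3%), the lowest sum of skeletal muscle markers (75714 TPM against 89838 or more in the other 7) and the lowest share of *Myh4* among the 4 adult myosin heavy chains (63.0% against 74.5% to 88.6%). Without that muscle, the log2FC was 0.23 for *Ugp2* and 0.17 for *Gys1*. The 4 adipocyte markers (*Adipoq*, *Plin1*, *Cfd* and *Lep*) summed to less in the siUBA1 leg of all 4 mice, at 61.4, 71.5, 62.6 and 30.9 TPM with siNT and at 53.1, 6.96, 54.9 and 10.2 TPM with siUBA1. The 4 fibroblast markers (*Pdgfra*, *Col1a1*, *Col3a1* and *Dcn*) summed to more in the siUBA1 leg of all 4 mice, at 657, 464, 845 and 386 TPM with siNT and at 880, 500, 1041 and 594 TPM with siUBA1, and the log2FC of all 4 was above 0 in deposited TPM. The part of these marker shifts in the results was not tested.

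*Gbe1*, the branching enzyme, was at 24.7, 25.0, 25.0 and 20.7 TPM with siNT and at 26.5, 27.9, 23.8 and 22.8 TPM with siUBA1. The groups overlapped, with the lowest value in siNT replicate 4, and the siUBA1 leg was higher in 3 of 4 mice. The log2FC was 0.079 (SE 0.0896, 95% interval -0.12 to 0.28, adjusted p = 0.634 from limma), and 0.015 without siNT replicate 4. It was 0.031 without siUBA1 replicate 2, 0.13 without siUBA1 replicate 4 and -0.038 after median-ratio scaling.

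**Figure D2:**
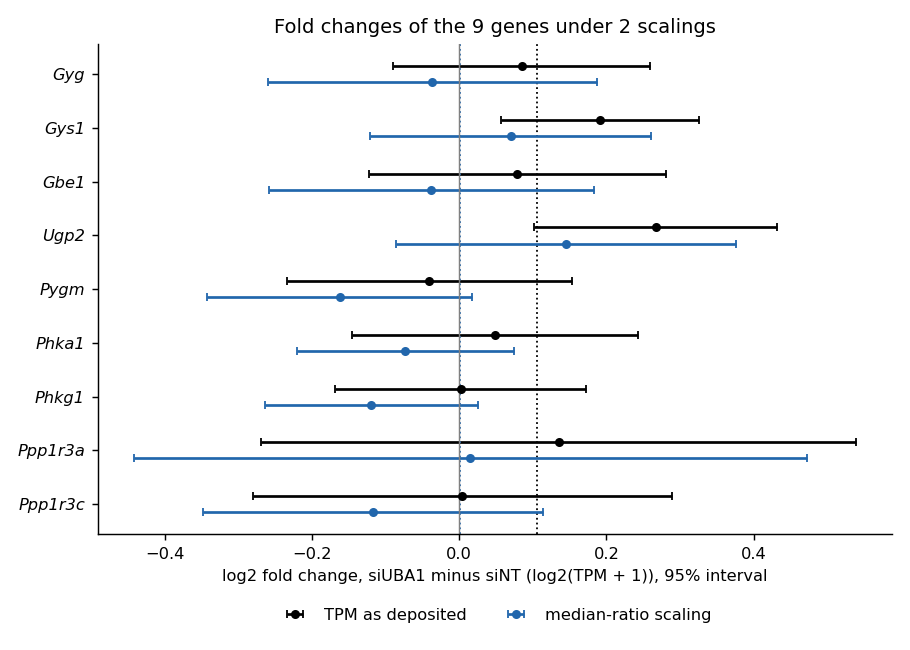
log2FC of siUBA1 against siNT with its 95% interval (horizontal axis, log2(TPM + 1) scale) for the 9 genes in TPM as deposited (black) and after median-ratio scaling (blue), with dotted lines at the median of all genes tested in each. The intervals of *Gys1* and *Ugp2* lie above 0 in deposited TPM only, and after scaling 3 of the 9 values are above 0.

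For the breakdown genes the groups overlapped. *Pygm*, the phosphorylase, was at 4409, 5076, 4821 and 5114 TPM with siNT and at 4821, 4186, 5089 and 4804 TPM with siUBA1. The siUBA1 leg was higher in mice 1 and 3 and lower in mice 2 and 4. The log2FC was -0.040 (SE 0.0862, 95% interval -0.23 to 0.15, adjusted p = 0.802 from limma), the only 1 of the 9 below 0 in deposited TPM, and 87.5% of the genes tested had a larger value. Relative to the median gene, *Pygm* was below in all 4 mice, by 0.059, 0.31, 0.074 and 0.13 on the log2 scale. Without siUBA1 replicate 2, its lowest muscle, the log2FC was 0.017, and after median-ratio scaling it was -0.16 (95% interval -0.34 to 0.018, adjusted p = 0.518 from limma).

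*Phka1*, the regulatory subunit of phosphorylase kinase, was at 271, 307, 299 and 318 TPM with siNT and at 343, 279, 329 and 288 TPM with siUBA1. *Phkg1*, the catalytic subunit, was at 161, 173, 161 and 178 TPM with siNT and at 177, 150, 181 and 168 TPM with siUBA1. As for *Pygm*, the siUBA1 leg was higher in mice 1 and 3 and lower in mice 2 and 4 for both subunits. The mitochondrial share was 45.7%, 43.9%, 42.1% and 43.2% in the siNT legs of mice 1 to 4 and 40.2%, 50.3%, 39.9% and 46.5% in their siUBA1 legs. The sum of the 5 skeletal muscle markers was 100275, 102168, 109434 and 109636 TPM in the siNT legs. In the siUBA1 legs it was 101897, 75714, 111849 and 89838 TPM, also higher in mice 1 and 3 and lower in mice 2 and 4. The log2FC of all 5 markers was below 0 in deposited TPM. The part of either measure in this pattern was not tested. In TPM rescaled without mitochondrial genes the order of the legs differed by gene: *Phka1* was higher in the siUBA1 leg of mouse 2 as well (548 with siNT, 562 with siUBA1), and *Pygm* was lower in that of mouse 1 (8118 with siNT, 8065 with siUBA1). *Phkg1* was then slightly lower in the siUBA1 leg of mouse 1 (297 with siNT, 296 with siUBA1) and slightly higher in that of mouse 4 (314.1 with siNT, 314.5 with siUBA1). The log2FC was 0.048 for *Phka1* (95% interval -0.15 to 0.24, adjusted p = 0.763 from limma) and 0.0019 for *Phkg1* (95% interval -0.17 to 0.17, adjusted p = 0.990 from limma). After median-ratio scaling, both were below 0, at -0.073 for *Phka1* and -0.12 for *Phkg1*.

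For both phosphatase targeting genes the range between mice exceeded the largest leg difference, as it also did for *Gyg* and *Gbe1*. *Ppp1r3c* was at 319, 269, 311 and 239 TPM with siNT and at 321, 279, 311 and 231 TPM with siUBA1. The 2 legs of a mouse differed by at most 1.04-fold, and in mouse 3 by -0.030%, whereas the means of the legs differed by 1.36-fold between mice 1 and 4. The largest leg difference over the 4 mice was 0.053 on the log2 scale, against a median of 0.31 over all genes tested, and 22 of the 11530 genes (0.191%) had a smaller value. The range between mice, 0.44 on the log2 scale, was exceeded by 17.5% of the genes. When the largest leg difference was divided by the range between mice, 4 genes had a smaller ratio than *Ppp1r3c*. This feature was chosen after its values were seen and is a description of these 4 mice, with no test. After median-ratio scaling the log2FC of *Ppp1r3c* was -0.12, against 0.0044 in deposited TPM (95% interval -0.28 to 0.29, adjusted p = 0.987 from limma). The near equality of the legs holds in deposited TPM and was lost in this scaling. There *Ppp1r3c* was at 333, 284, 314 and 251 scaled TPM with siNT and at 287, 287, 279 and 235 with siUBA1. Relative to the median gene of the same mouse, it was at -0.18, 0.024, -0.15 and -0.089 on the log2 scale. The standard error of the log2FC in deposited TPM was 0.127 without pairing and 0.0625 with the mouse as a block.

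*Ppp1r3a*, the other targeting subunit, was at 54.1, 55.9, 54.2 and 96.0 TPM with siNT and at 69.1, 72.5, 59.8 and 76.7 TPM with siUBA1. The value of siNT replicate 4 stood apart from the other 3, and the same mouse had the highest siUBA1 value. *Ppp1r3a* was therefore the most variable member in siNT muscles, with a coefficient of variation of 31.8%. The log2FC was 0.13 (SE 0.180, 95% interval -0.27 to 0.54, adjusted p = 0.684 from limma). Without siNT replicate 4 it was 0.34 (adjusted p = 0.138 from limma), and without siNT replicate 1, 2 or 3 it was 0.063, 0.078 and 0.064. It was 0.20 without siUBA1 replicate 3, 0.087 without siUBA1 replicate 4 and 0.015 after median-ratio scaling. Mouse 4, with the highest *Ppp1r3a*, had the lowest *Ppp1r3c* in both legs. The means of the legs for *Ppp1r3a* were 61.6, 64.2, 57.0 and 86.3 TPM in mice 1 to 4. Its range between mice thus rested on mouse 4, while its legs differed by 0.35, 0.37, 0.14 and -0.32 on the log2 scale.

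**Figure D3:**
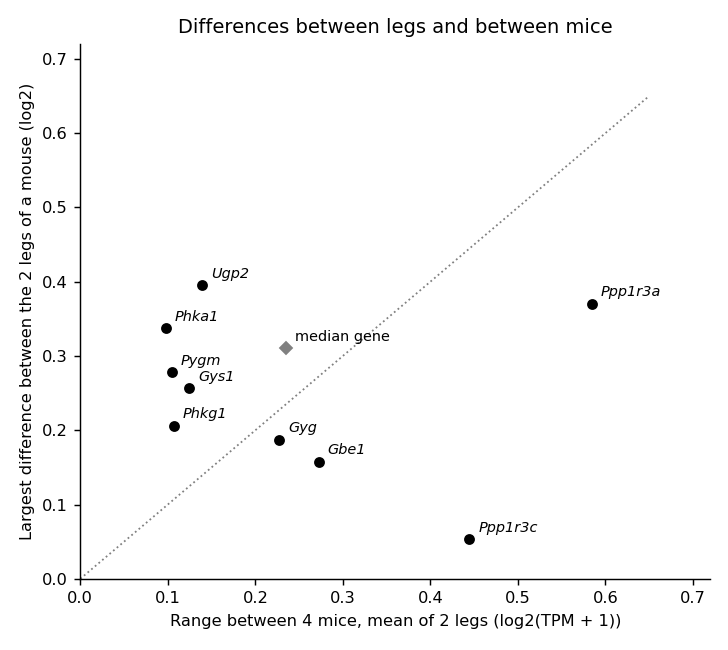
For each of the 9 genes, the range between the 4 mice of the mean of the 2 legs (horizontal axis) and the largest difference between the legs of a mouse (vertical axis), both in log2(TPM + 1), with the median of all genes tested as a diamond and a dotted line where both are equal. *Ppp1r3c* lies lowest at 0.053, *Ppp1r3a* farthest right at 0.58, and *Ugp2*, *Phka1*, *Pygm*, *Gys1* and *Phkg1* lie above the line.

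Ratios of 2 members within the same muscle do not depend on how the TPM of that muscle were scaled. There were 6 of them, each tested with the exact permutation test over the 70 splits of the 8 muscles, two-sided. A single ratio at the smallest p this design allows, 0.0286, would have an adjusted p of 0.171 over the 6, so the test could hardly give a call and the ratios are read as values. *Gys1*/*Pygm*, synthase over phosphorylase, was 0.0493, 0.0457, 0.0447 and 0.0446 with siNT and 0.0540, 0.0630, 0.0469 and 0.0536 with siUBA1. It was higher in the siUBA1 leg of 4 of 4 mice, but siUBA1 replicate 3 lay below siNT replicate 1. The fold was 1.17 (log2 difference 0.23, exact permutation p = 0.0571, adjusted p = 0.343), and leaving out single muscles gave log2 differences from 0.16 to 0.30, the lowest without siUBA1 replicate 2.

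*Gyg*/*Gys1*, primer over synthase, was 0.977, 1.07, 1.09 and 1.17 with siNT and 0.931, 0.969, 1.07 and 1.03 with siUBA1. It was lower in the siUBA1 leg of 4 of 4 mice, with a log2 difference of -0.11 (exact permutation p = 0.143, adjusted p = 0.343), which was -0.066 without siNT replicate 4 and -0.15 without siNT replicate 1. *Gbe1*/*Gys1*, branching enzyme over synthase, was likewise lower in 4 of 4 mice, from 0.107 ± 0.0115 with siNT to 0.0990 ± 0.00748 with siUBA1 (SD, n = 4 each; log2 difference -0.11, exact permutation p = 0.314, adjusted p = 0.411). That difference was -0.057 without siUBA1 replicate 4, -0.067 without siNT replicate 3 and -0.19 without siNT replicate 4. *Ugp2*/*Gys1* was 1.61 ± 0.0841 with siNT and 1.70 ± 0.0648 with siUBA1 (SD, n = 4 each; log2 difference 0.076, exact permutation p = 0.171, adjusted p = 0.343). *Phkg1*/*Phka1* was 0.564 ± 0.0228 and 0.546 ± 0.0284 (SD, n = 4 each; exact permutation p = 0.343, adjusted p = 0.411). *Ppp1r3c*/*Ppp1r3a* ranged from 2.49 to 5.90 with siNT and from 3.02 to 5.20 with siUBA1 (exact permutation p = 0.686, adjusted p = 0.686). The 4 ratios that contain *Gys1* are not independent of each other, and they include the 3 with the same direction in 4 of 4 mice.

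**Figure D4:**
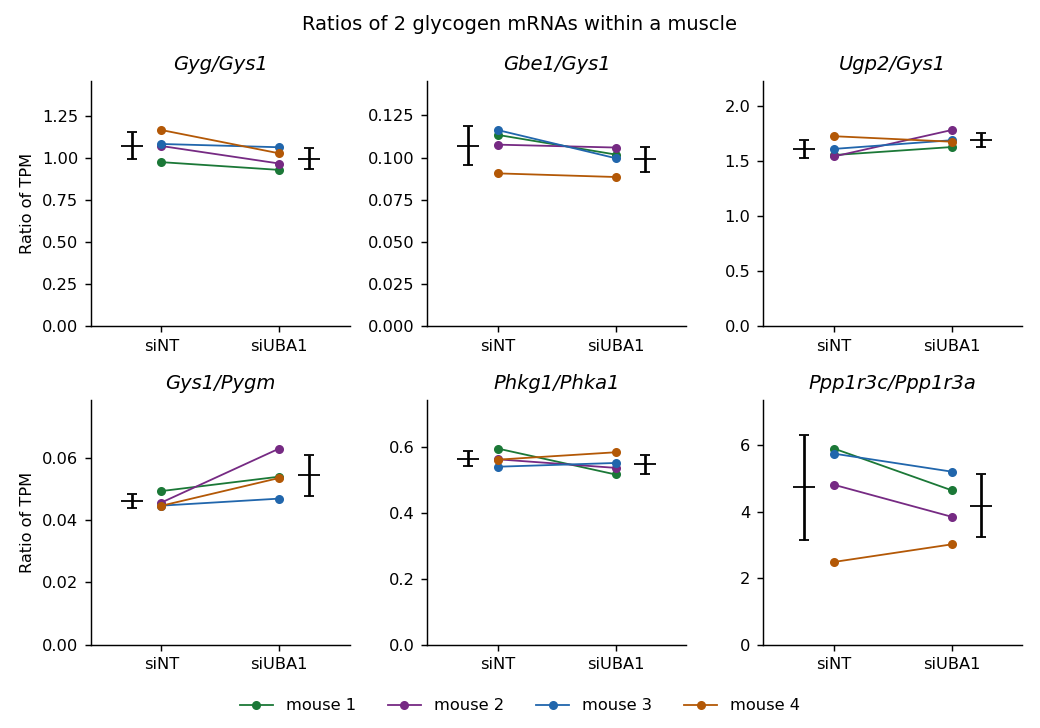
Ratio of the TPM of 2 genes within a muscle (vertical axes from 0) in the siNT and the siUBA1 leg, with a line for each of the 4 mice and the mean ± SD beside the points. The lines of *Gys1*/*Pygm* all slope upward and those of *Gyg*/*Gys1* and *Gbe1*/*Gys1* all slope downward, and the groups overlap in every panel.

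The wider pathway was covered by a list of 38 other genes for glycogen enzymes, phosphatase and kinase subunits, glucose uptake and phosphorylation, and glycogen clearance, of which 33 were tested. None passed the adjusted p of 0.05 from limma. The median log2FC was 0.072, against 0.079 for the 9 genes and 0.11 for all genes. It was above 0 for 21 of the 33, or 63.6%, against 81.8% of all genes tested. At an unadjusted p under 0.05, 4 were higher and 1 lower in limma, against 16.0% higher and 1.98% lower over all genes tested. The 3 with the smallest p were *Gaa*, *Pgm2* and *Nhlrc1*. *Gaa*, the lysosomal enzyme that degrades glycogen, was at 101, 122, 101 and 117 TPM with siNT and at 124, 126, 138 and 135 TPM with siUBA1. It was the only 1 of the 33 whose siUBA1 muscles all lay above the siNT muscles, as did 10.6% of all genes tested, and the log2FC was 0.25 (SE 0.0812, adjusted p = 0.187 from limma). After median-ratio scaling its groups overlapped, with a log2FC of 0.13 (adjusted p = 0.684 from limma). *Nhlrc1*, which encodes the ubiquitin ligase malin, was at 4.12, 4.95, 3.70 and 4.14 TPM with siNT and at 4.76, 5.10, 5.63 and 5.22 TPM with siUBA1, a log2FC of 0.24 (adjusted p = 0.211 from limma). *Pgm2*, a gene named for phosphoglucomutase, was at 3.30, 3.89, 3.25 and 3.46 TPM with siNT and at 3.04, 2.05, 2.85 and 2.72 TPM with siUBA1. It was the only 1 of the 33 with every siUBA1 muscle below every siNT muscle in deposited TPM, as found for 1.01% of all genes tested (log2FC -0.29, adjusted p = 0.201 from limma). The other 2 at this threshold, named after their values were seen, were *Gsk3b*, a kinase of glycogen synthase (log2FC 0.23, adjusted p = 0.226 from limma), and *Prkag2*, a subunit of the AMP-activated kinase (log2FC 0.30, adjusted p = 0.227 from limma). After median-ratio scaling the log2FC was 0.14 for *Nhlrc1*, 0.11 for *Gsk3b*, 0.20 for *Prkag2* and -0.39 for *Pgm2*. In that scaling no gene of the list was higher and 7 were lower at an unadjusted p under 0.05, against 4.43% higher and 6.18% lower over all genes tested. *Pgm1* of the same list was far more abundant than *Pgm2*, at means of 825 TPM with siNT and 813 TPM with siUBA1. Its groups overlapped in deposited TPM (log2FC -0.030, adjusted p = 0.873 from limma). After median-ratio scaling every siUBA1 muscle lay below every siNT muscle for *Pgm1* (log2FC -0.15, adjusted p = 0.445 from limma).

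**Figure D5:**
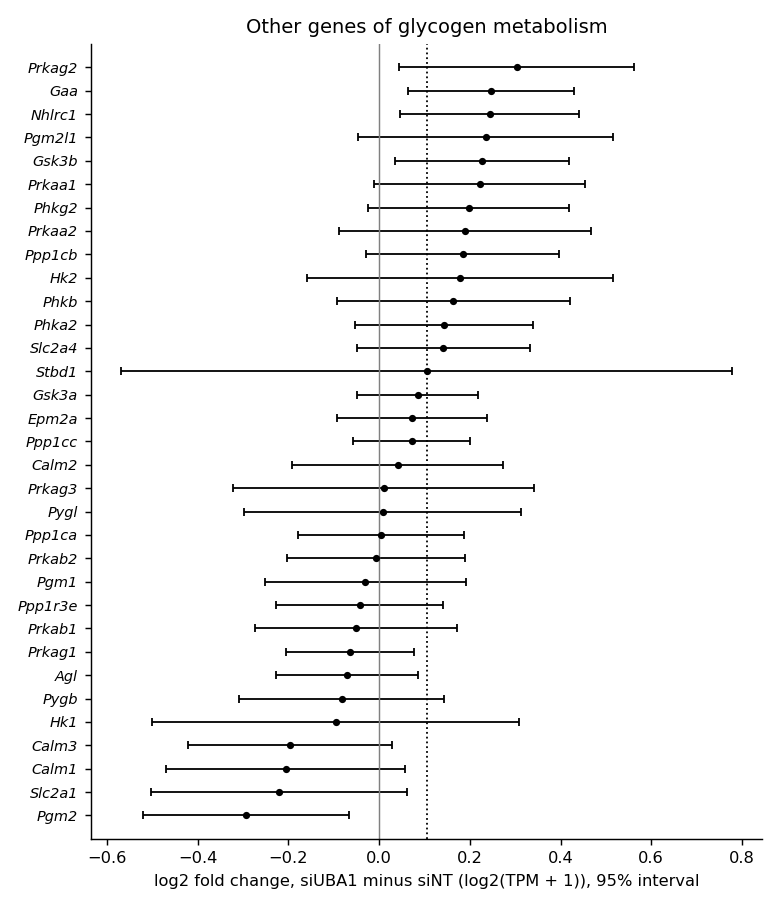
log2FC of siUBA1 against siNT with its 95% interval (horizontal axis, log2(TPM + 1) scale) for the 33 other genes of glycogen metabolism tested, in order of log2FC, with a dotted line at the median of all genes tested. The values run from -0.29 (*Pgm2*) to 0.30 (*Prkag2*), and 5 of the intervals exclude 0.

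The genes whose pattern over the 8 muscles was most like that of *Gyg* were found by the root mean square difference of the centred log2(TPM + 1) values. They were *Htatsf1* (0.0305), *Eif4b* (0.0315), *Psmd1* (0.0377), *Map4* (0.0414) and *Cldnd1* (0.0416), against a median of 0.172 over all other genes tested. Of the other 8 members, *Gys1* was the closest at 0.0992, which ranked 954 in this measure, and *Ppp1r3c* the farthest at 0.260.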

How the data were processed

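RNA was sequenced from the 8 muscles with an unstranded kit (TruSeq RNA v2). According to the methods of the study, the authors aligned paired-end reads to GRCm39 (mm39) with CLC Genomics Workbench 20.0.4 and deposited gene abundances as TPM, and the annotation is not given in the sources used here. Each muscle's TPM add up to 1000000, the number of reads is thus unknown, and the number of muscles limits the precision. The muscles were grouped by the titles of the labels. Every column of the table was assigned to a muscle.

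The TPM were analyzed as log2(TPM + 1) with limma 3.58.1 (lmFit and eBayes with a trend) in R 4.3.3, without pairing, for the 11530 genes that reached 1 TPM in 4 or more of the 8 muscles, with Benjamini-Hochberg adjustment over all of them. The count of columns without a sample was 0. Fold changes on this scale understate those of genes with low TPM. Single values and ratios were compared with exact permutation tests over the 70 splits of the muscles, which ignore the pairs of legs and cannot give p below 0.0286. The scripts were tested on simulated data. The legs of a mouse share a number, and deviations of same-numbered muscles from their group means correlated at -0.00037, 0.20, 0.58 and 0.54 for mice 1 to 4. They were treated as pairs in an alternative fit because they come from the same animal.

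The members and lists were chosen with earlier results of these data known. The genes named were the 9 members, *Uba1*, the isoform partners, the 3 genes of the wider list with the smallest p and the 5 genes most like *Gyg*. *Gsk3b*, *Prkag2* and *Pgm1*, marker genes and genes that share exon sequence with a member were named beyond this rule. Results were recomputed with a pseudocount of 0.1, without the filter, for genes whose mean reached 5 TPM, after median-ratio scaling, quantile normalization, TPM without mitochondrial genes, the replicate block alone and with median-ratio scaling, an exact rank test, and leaving out each muscle. Promoter sequences are from RefSeq, and gene positions and exon overlaps from GENCODE M39. No gene tested of any marker list (also leukocytes, endothelium, Schwann cells and erythroid cells) passed the adjusted p of 0.05.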

Additional observations from a re-analysis of the deposited data

Results flagged for a closer look

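Both values that stood apart from their group came from siNT replicate 4. *Ppp1r3a* was at 96.0 TPM in that muscle, where the other 3 siNT muscles lay between 54.1 and 55.9 TPM, so that the gap to the nearest muscle was 0.957 of the range of the group. *Gbe1* was at 20.7 TPM, below the other 3 siNT muscles at 24.7 to 25.0 TPM, a gap of 0.918 of the range. The siUBA1 leg of the same mouse had the highest *Ppp1r3a* (76.7 TPM) and the lowest *Gbe1* (22.8 TPM) of its group. Chance flags about 1 group in 20, or 1.6 of the 32 groups of 4 muscles searched, and 2 were found. The groups come from the same 8 muscles and are not independent, so 1.6 is only a guide.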

How the results depend on the processing

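The number of the 9 genes and of the 33 other glycogen genes past an adjusted p of 0.05 was 0 in every alternative run, of which the exact rank test could give no call at this size. The direction of *Ugp2*, *Gys1* and *Ppp1r3a* was kept in all of them, with log2FC from 0.15 to 0.31 for *Ugp2* and from 0.015 to 0.34 for *Ppp1r3a*. Median-ratio scaling, alone or with the replicate block, moved *Pygm* to -0.16 and reversed *Gyg* (-0.037), *Gbe1* (-0.038), *Phka1* (-0.073), *Phkg1* (-0.12) and *Ppp1r3c* (-0.12). Quantile normalization reversed *Phkg1* (-0.045) and *Ppp1r3c* (-0.035). Leaving out single muscles gave a log2FC from -0.086 to 0.017 for *Pygm*, from -0.0024 to 0.097 for *Phka1*, from -0.032 to 0.059 for *Phkg1* and from -0.076 to 0.10 for *Ppp1r3c*, and the log2 difference of *Ppp1r3c*/*Ppp1r3a* from -0.42 to 0.014. The cause was not tested.

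With the replicate block (the mouse), the log2FC of *Uba1* stayed -1.98 and its adjusted p was 0.0278, 57 of all genes tested passed (76 with median-ratio scaling), and the block changed no call of a glycogen gene. For the ratios, the exact sign-flip test within mice cannot give p below 0.125, so the block gives no call there. The count of all genes tested past the adjusted p, 3 in the fit reported, was 11 for genes whose mean reached 5 TPM, 23 after median-ratio scaling, 28 after quantile normalization, 14 without mitochondrial genes and 0 in the exact rank test, in which 1225 genes were higher and 117 lower at an unadjusted p under 0.05. With each muscle left out it ran from 2 to 39, the highest without siUBA1 replicate 4. *Uba1* passed at -1.98 with the stricter filter, -2.09 after median-ratio scaling, both with and without the block, -2.06 with quantile normalization and -2.0 without mitochondrial genes. It did not pass with a pseudocount of 0.1 (adjusted p = 0.0666 from limma), without the filter (adjusted p = 0.131 from limma), in the exact rank test (adjusted p = 0.245, the smallest it gave) or in 6 of the 8 fits without a muscle, whose log2FC ran from -2.18 to -1.64 and adjusted p from 0.00257 to 0.230. TPM keep no depth, so no counting error can be given for low genes such as *Nhlrc1* or *Pgm2*.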
